A study of Homo sapiens with 8 samples.

Results

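The mRNAs of the proteasome subunits were followed in RNA immunoprecipitated with ribosomal protein S6 (RPS6) and in the matching input of 4 human cancer cell lines. The members were chosen by gene symbol, as all genes whose symbol is PSMA, PSMB, PSMC, PSMD or PSME followed by a number. This rule found 45 of the 57756 listed genes, with 43 distinct symbols, because PSMA1 and PSMA2 each have an additional gene identifier at the same locus. RPS6 is a protein of the small ribosomal subunit, and RNA immunoprecipitation (RIP) pulls down RNA held by the antibody's target, here ribosomes and their precursors with whatever RNA they carry. The inputs are RNA of the same kind of cell lysate without the pull-down. No library came from a pull-down with a control antibody. RNA held by RPS6 and RNA that stayed in the pull-down otherwise therefore cannot be told apart. Each of Hep3B (hepatocellular carcinoma), HCT116 (colorectal cancer), DU145 (prostate cancer) and SW1990 (pancreatic cancer) cells gave 1 input and 1 RIP library, so there were 8 libraries in 4 pairs and no replicate within a cell line. All are established cell lines, and the labels give no genetic change, treatment or time point for any of them. For the liver cancer pair, the sample titles and the study say Hep3B, but the label for the cell line says Huh7. The name Hep3B is kept here.

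The proteasome is the large protease that degrades ubiquitin-tagged proteins. Its core particle is a barrel of outer rings of alpha subunits (PSMA genes), which gate the entry, around inner rings of beta subunits (PSMB genes), of which PSMB5, PSMB6 and PSMB7 carry the proteolytic sites. In cells exposed to interferon gamma, and in immune cells, these are replaced by the immune subunits PSMB8, PSMB9 and PSMB10, and the core with these subunits is the immunoproteasome. The regulatory particle caps the barrel. Its base holds a ring of ATPases (PSMC genes) that unfold substrates and scaffold subunits (PSMD1, PSMD2), and its lid (most other PSMD genes) holds the deubiquitinase PSMD14. PSMD5, PSMD9 and PSMD10 are chaperones of base assembly and no stable subunits, and the PSME genes encode other activators that bind the end of the core.

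Depth, read as whole fragments recovered from the deposited estimated counts, lay between 35796194 and 54209625 fragments in the inputs and between 34630338 and 42610081 in the RIP libraries. The liver markers ALB, AFP, APOA1, APOA2, TTR and FGB were all above 1 FPKM in the Hep3B input, with a summed level of 14807 FPKM, against at most 1.32 FPKM in the other 3 inputs. The other labels were less clear by their markers. Of the colon markers CDX2, VIL1, LGALS4 and CDX1, only CDX2 reached 1 FPKM in the HCT116 input, at 6.25 FPKM, and CDX2 was higher in the SW1990 input at 86.6 FPKM. Of the prostate luminal markers, KLK3, KLK2 and HOXB13 were listed at 0 in the DU145 input. Of the pancreatic markers KRT19, KRT7, MUC1 and CEACAM6, 3 of 4 reached 1 FPKM in the SW1990 input, and CEACAM6 was listed at 0. The HCT116 and DU145 inputs also had 3 of 4 at that level, so the count does not set SW1990 cells apart. KRT7 and MUC1 were at 3.17 and 1.16 FPKM in the SW1990 input, against 254 and 76.6 FPKM in the DU145 input. KRT19 was at 229 FPKM in the SW1990 input, below HCT116 (570) and above Hep3B (141) and DU145 (85.8). Of the leukocyte markers, which bear on the immune subunits, LYZ was at 22.7 FPKM in the Hep3B input and listed at 0 in the other 3, CD14 lay between 0.115 (HCT116) and 2.0 FPKM (SW1990) in the inputs, and CD3E reached 0.0402 FPKM in the SW1990 input and was listed at 0 in the others. PTPRC, the defining surface marker of leukocytes, was at most 0.0165 FPKM in any library.

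In the inputs, the proteasome genes were expressed in all 4 lines, apart from the immune genes PSMB8 and PSMB9 and the tissue-restricted genes. Levels are in FPKM, which scales fragments to transcript length and to a depth of 1000000, so that genes can be compared. PSMB4, a non-catalytic beta subunit, had the highest level, with 542, 433, 472 and 489.6 FPKM in the inputs of Hep3B, HCT116, DU145 and SW1990 cells, the order used throughout. Its levels differed little between the lines, with a ratio of highest to lowest of 1.25. PSMB3, another non-catalytic beta subunit, followed with 372 ± 96.8 FPKM (SD, n = 4 lines). The core alpha genes lay between 70.2 (PSMA5) and 239 FPKM (PSMA4) by their mean over the inputs, and the constitutive core beta genes between 75.6 (PSMB2) and 484 FPKM. The regulatory particle lay lower, with 47.6 to 89.8 FPKM for the 6 PSMC genes and 31.0 (PSMD10) to 159 FPKM (PSMD8) for the 14 PSMD genes. The medians of the mean input levels were 194 FPKM for the 14 constitutive core genes and 58.9 FPKM for the 20 genes of the regulatory particle. The steadiest subunit genes were PSMC4, with a ratio of highest to lowest input of 1.09, and the activator PSME4, with 1.14, while PSMD9 (4.03), PSMD2 (3.81) and PSME1 (3.67) had the largest ratios among members other than the immune genes and the additional identifiers. These ratios set libraries of different tables beside each other. The pairs of Hep3B and HCT116 cells were deposited in 1 table and those of DU145 and SW1990 cells in another, each scaled on its own, and in bulk RNA fewer cells that express a gene and less RNA of it per cell cannot be told apart.

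**Figure D1:**
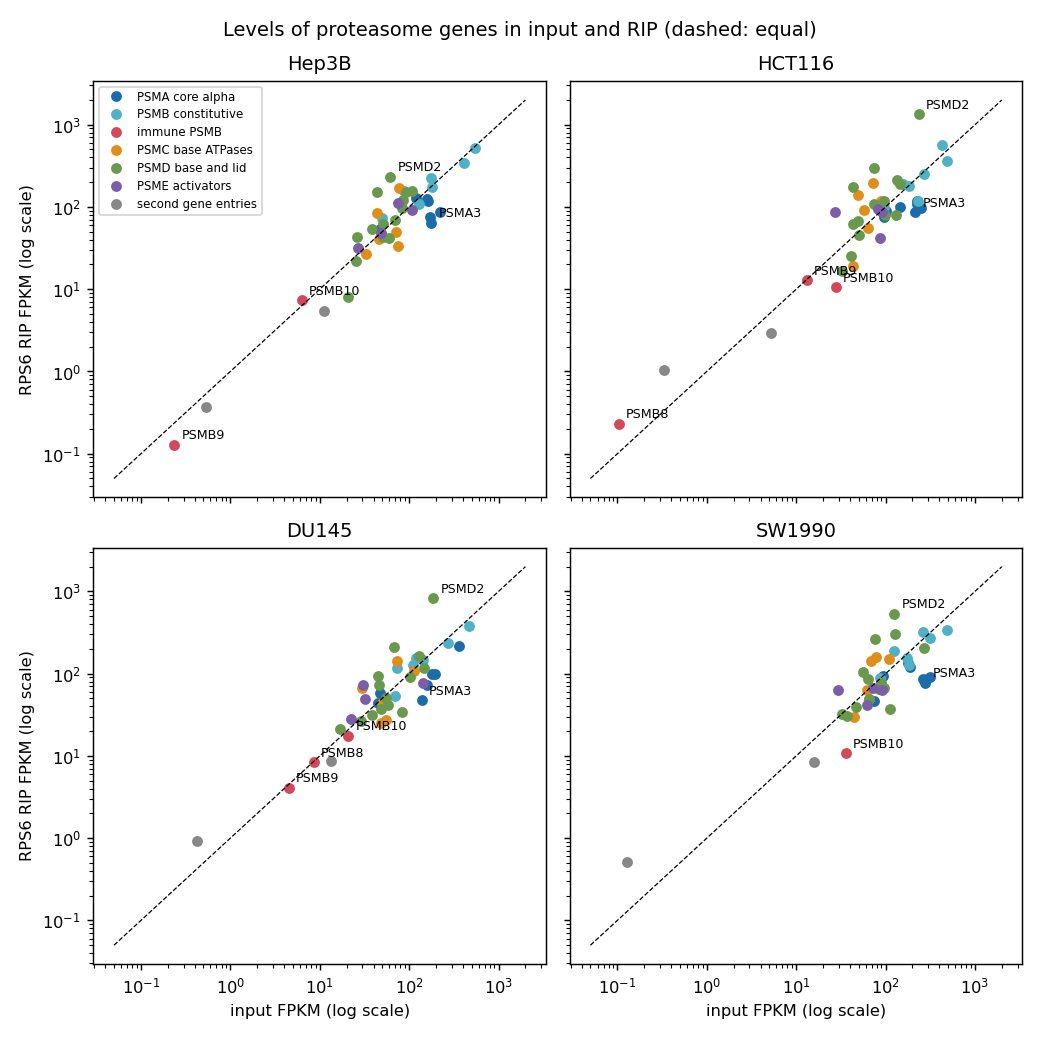
Level of each tested proteasome gene in the RPS6 RIP library (y axis, FPKM, log scale) against the input of the same cell line (x axis, FPKM, log scale), 1 panel per line, with the dashed line marking equal levels and genes listed at 0 left out. PSMD2 lies above the line in all 4 panels (RIP 233 to 1348 FPKM, input 61.8 to 236 FPKM), and PSMA3 lies below it. PSMB8 and PSMB9, where drawn, sit toward the low end with the additional PSMA1 and PSMA2 identifiers. PSMB10 is low in Hep3B cells but reaches 36.0 FPKM in the SW1990 input, above PSME4 and PSMD5.

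PSMA8, the alpha subunit of the testis, was listed at 0 in all 8 libraries, and PSMB11, the beta subunit of the thymus, reached at most 0.0195 FPKM. These genes were not tested. The other 43 entries passed the filter of a mean of 10 estimated counts over the 8 libraries.

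The 43 tested entries did not move together between input and RIP. By edgeR's quasi-likelihood test with the cell line as a block and Benjamini-Hochberg adjustment over all genes tested, with a threshold of 0.05, 7 were higher in RIP, 12 were lower and 24 did not pass. Of all 19921 genes tested, 26.5% were higher and 24.9% lower in RIP, and of the 13561 protein-coding genes among them 32.3% were higher and 26.1% lower. The median log2 fold change of RIP over input was -0.29 over the 43 entries, -0.05 over all genes tested and 0.13 over the protein-coding ones. The classes differed in what was called. Among core alpha genes 0 of 7 were higher and 5 lower, and among constitutive core beta genes 0 of 7 passed in either direction. Among the immune genes 0 of 3 passed, among the PSMC ATPases 2 of 6 were higher and 2 lower, among the PSMD genes 4 of 14 were higher and 3 lower, and among the activators 1 of 4 was higher and 1 lower. The remaining lower entry was the additional PSMA2 identifier. By FPKM, RIP was above input in 4 of 4 lines for 7 of the 43 entries (30.7% of all genes tested), the same 7 that were called higher, and below input in 4 of 4 lines for 12 entries (23.6% of all genes tested), among them PSMB3 and PSMB9, which did not pass, and not PSMD5 and PSMD12. All 7 higher genes encode parts of the cap or activators. Unadjusted p-values under 0.05 added 1 alpha gene (PSMA2), 1 beta gene (PSMB6) and 1 PSMD gene (PSMD14), all lower. DESeq2, which called 28.4% of all genes higher and 27.1% lower, called all 7 alpha genes lower and 0 beta or immune genes in either direction. limma on log2(FPKM + 1), which called 28.6% of all genes higher and 20.1% lower, called 5 alpha genes lower and 0 beta or immune genes. A fold change here is relative to the other genes of the same library and not an absolute amount of bound RNA. Other scalings moved the split. With library totals without TMM, which shifts the median of all genes to -0.40, 5 were higher and 21 lower (19.5% and 32.0% of all genes). Centred on protein-coding genes, 6 were higher and 17 lower (23.9% and 27.5% of all genes). Without the cell line block 2 were higher and 4 lower, and of all genes 7.16% were higher and 6.75% lower.

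**Figure D2:**
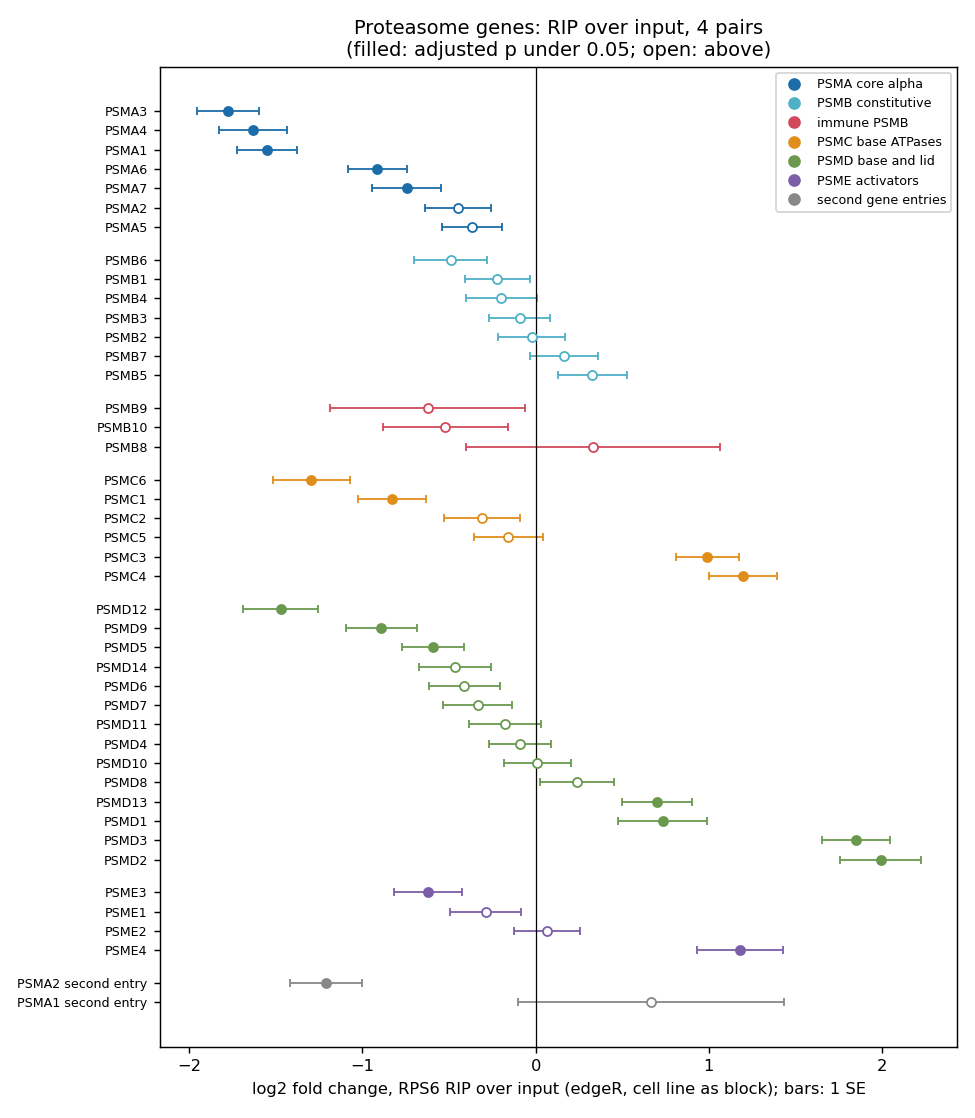
Log2 fold change of RPS6 RIP over input (x axis, points) with 1 standard error (bars) for the 43 tested proteasome entries, from edgeR with the cell line as a block over 4 pairs, sorted within each class. Filled points had an adjusted p under 0.05, 7 to the right of 0 and 12 to the left, and all 7 core alpha points lie left of 0, from -1.78 for PSMA3 to -0.37 for PSMA5.

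The regulatory particle held the members with the highest fold changes. PSMD2, a scaffold of the base and a docking site for ubiquitin receptors, had 61.8, 236, 185 and 125 FPKM in the inputs and 233, 1348, 822 and 536 FPKM in RIP. Each RIP library was above its own input, and the groups overlapped only in that the Hep3B RIP library was slightly below the HCT116 input. PSMD2 was higher in RIP with a log2 fold change of 1.99 ± 0.23 (SE, edgeR adjusted p = 6.39e-05), or 3.98-fold. It lies in an interval of overlapping genes, chr3:183851806-184402546 (hg19), that holds 22 other listed genes, 15 of them protein-coding. How fragments of overlapping genes were counted is not given in the sources used here.

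PSMD3, a lid subunit, stood alone at its locus and had 43.8, 74.7, 68.3 and 75.5 FPKM in the inputs against 154, 296, 209.7 and 265 FPKM in RIP. All RIP libraries were above all inputs, with log2 ratios of FPKM between 1.60 (DU145) and 1.97 (HCT116). Its log2 fold change was 1.85 ± 0.20 (SE, edgeR adjusted p = 3.77e-05). PSMC4, one of the base ATPases, had 77.6, 72.6, 74.1 and 79.2 FPKM in the inputs and 169, 193, 143 and 159 FPKM in RIP. Here too the groups did not overlap, and the log2 fold change was 1.20 ± 0.20 (SE, edgeR adjusted p = 0.000545). PSMC3, another base ATPase, had 43.6, 48.7, 29.5 and 68.6 FPKM in the inputs and 84.7, 139, 67.2 and 143 FPKM in RIP. It was above its input in every line, with an overlap through the DU145 RIP library, and its log2 fold change was 0.99 ± 0.18 (SE, edgeR adjusted p = 0.00105).

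PSME4, the activator PA200, which is linked to the degradation of acetylated histones, had 26.5, 27.0, 30.3 and 29.4 FPKM in the inputs and 32.1, 86.9, 73.4 and 63.8 FPKM in RIP. All RIP libraries were above all inputs, though the Hep3B RIP library only narrowly so. Its log2 fold change was 1.18 ± 0.25 (SE, edgeR adjusted p = 0.00264). PSMD1, the other scaffold of the base, had 51.1, 42.8, 46.3 and 55.9 FPKM in the inputs and 61.9, 174, 72.0 and 104 FPKM in RIP. The groups did not overlap, but the HCT116 pair rose far more than the others. The log2 fold change was 0.73 ± 0.26 (SE, edgeR adjusted p = 0.0345), and it was 0.43 and no longer passed without the HCT116 pair. It also did not pass without the SW1990 pair (0.73), with library totals (0.39) or when centred on protein-coding genes (0.60). PSMD13, a lid subunit, had 86.3, 134, 45.2 and 128 FPKM in the inputs and 123, 216, 94.8 and 307 FPKM in RIP. Each line rose although the groups overlapped, and the log2 fold change of 0.70 ± 0.20 (SE, edgeR adjusted p = 0.0144) was 0.60 without the DU145 pair, 0.58 without the SW1990 pair and 0.35 with library totals, and in none of these passed. Of all genes tested, 10.9% had their lowest RIP level above their highest input, and so did 4 of the 43 proteasome entries, namely PSMD1, PSMD3, PSMC4 and PSME4.

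The core alpha genes had the lowest class median, with a log2 fold change of -0.91. PSMA3, a subunit of the alpha ring, had 177, 214, 138 and 279 FPKM in the inputs and 64.1, 86.5, 47.9 and 77.5 FPKM in RIP. Every RIP library was below every input. The log2 fold change was -1.78 ± 0.18 (SE, edgeR adjusted p = 2.87e-05), or 3.43-fold lower.

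PSMA4 and PSMA1 followed the same pattern. PSMA4 had 219, 227, 194 and 314 FPKM in the inputs and 86.4, 119, 98.7 and 91.9 FPKM in RIP, with a log2 fold change of -1.63 ± 0.20 (SE, edgeR adjusted p = 7.14e-05). PSMA1 had 170.3, 247, 157 and 263 FPKM in the inputs and 76.4, 96.5, 73.4 and 86.9 FPKM in RIP, with a log2 fold change of -1.55 ± 0.17 (SE, edgeR adjusted p = 4.48e-05). For both genes the groups did not overlap, and the SW1990 input was the highest library. PSMA6 had 162, 146, 361 and 188 FPKM in the inputs and 118, 101, 218 and 121 FPKM in RIP. The DU145 pair was high in both libraries, so the groups overlapped, while the ratio differed little between lines and the log2 fold change was -0.91 ± 0.17 (SE, edgeR adjusted p = 0.00122). PSMA7 had 158, 225, 179.6 and 177 FPKM in the inputs and 126, 110.1, 98.9 and 135 FPKM in RIP, without overlap, and its log2 fold change was -0.74 ± 0.20 (SE, edgeR adjusted p = 0.00967). Without the DU145 pair it was -0.68 and did not pass.

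The other alpha genes did not pass. PSMA5 was closest to 0 in the class, with 47.2, 96.7, 44.4 and 92.5 FPKM in the inputs, 54.6, 75.0, 44.5 and 92.7 FPKM in RIP and a log2 fold change of -0.37 ± 0.18 (SE, edgeR adjusted p = 0.106). PSMA2 had a log2 fold change of -0.45 ± 0.19 (SE, edgeR adjusted p = 0.0713). Both passed as lower with DESeq2, with library totals and when centred on protein-coding genes. The additional PSMA2 identifier (ENSG00000256646), whose locus also holds the mitochondrial ribosomal protein gene MRPL32, was lower, from 5.28 to 15.7 FPKM in the inputs and 2.97 to 8.68 FPKM in RIP, with a log2 fold change of -1.21 ± 0.21 (SE, edgeR adjusted p = 0.00072). The additional PSMA1 identifier did not exceed 1.04 FPKM. Because both share a locus with the main entry, fragments may have been divided between them. Of all genes tested, 8.17% had their highest RIP level below their lowest input, and so did 4 of the 43 entries, PSMA1, PSMA3, PSMA4 and PSMA7.

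Of the constitutive beta genes 0 of 7 passed, and their log2 fold changes lay between -0.49 for PSMB6 and 0.33 for PSMB5. PSMB6 passed as lower under 3 other settings, with a minimum of 50 counts (-0.54, edgeR adjusted p = 0.0497), with library totals (-0.84, edgeR adjusted p = 0.0116) and when centred on protein-coding genes (-0.62, edgeR adjusted p = 0.0314), and PSMB1 passed as lower with library totals. PSMB5, which carries the chymotrypsin-like site and is the main target of proteasome inhibitors such as bortezomib, had 177, 184, 73.0 and 125 FPKM in the inputs and 225, 181, 118 and 187 FPKM in RIP (0.33 ± 0.20, SE, edgeR adjusted p = 0.193). PSMB6, with the caspase-like site, had 128, 233, 144 and 183 FPKM in the inputs and 110.2, 117, 146 and 128 FPKM in RIP (-0.49 ± 0.21, SE, edgeR adjusted p = 0.0762). PSMB7, with the trypsin-like site, had 88.1, 156, 118 and 173 FPKM in the inputs and 155, 192, 154 and 156 FPKM in RIP (0.17 ± 0.20, SE, edgeR adjusted p = 0.506). For all 3 the groups overlapped, and in each of them 1 line lay on the other side of 0 from the rest. The non-catalytic PSMB1, PSMB2, PSMB3 and PSMB4 lay between -0.22 and -0.02 in log2 fold change. The median log2 ratio of RIP to input FPKM, taken as log2(FPKM + 1), was lower for the alpha than for the constitutive beta genes in all 4 lines, with differences of -0.42, -0.91, -0.87 and -0.50 in the same order.

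**Figure D3:**
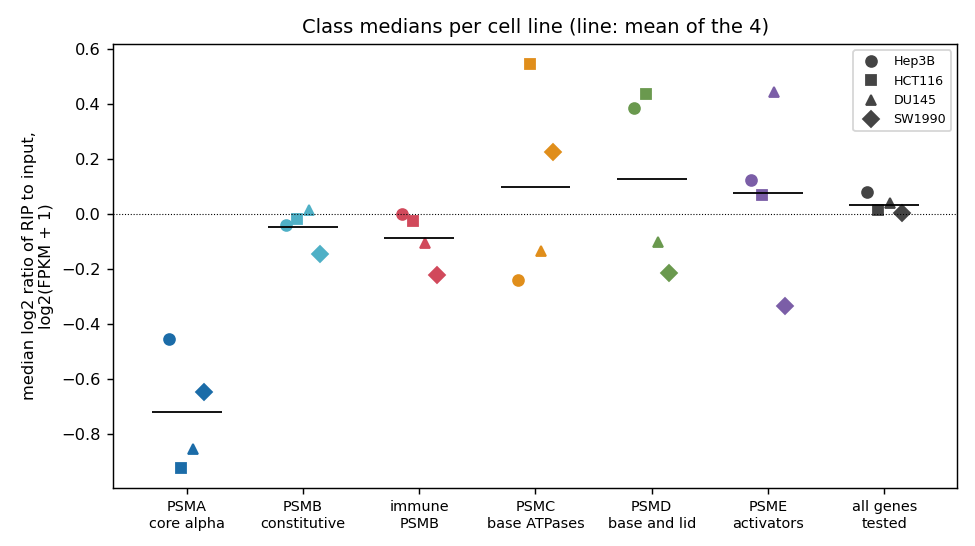
Median log2 ratio of RIP to input, from log2(FPKM + 1), over the tested genes of each class (y axis) in each of the 4 cell lines (symbols), with the mean of the 4 lines as a horizontal bar and all 19921 genes tested at the right. The alpha medians lie between -0.92 and -0.46, below those of the other classes drawn for the same line, while the beta medians lie between -0.14 and 0.01.

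Over the 4 lines the class medians were -0.72 ± 0.21 (SD, n = 4) for the alpha genes, -0.05 ± 0.07 for the constitutive beta genes and -0.09 ± 0.10 for the immune genes. They were 0.10 ± 0.36 for the PSMC ATPases, 0.13 ± 0.33 for the PSMD genes and 0.07 ± 0.32 for the activators. The sign of these 3 turned with the scale. The medians of the edgeR log2 fold changes were -0.23, -0.13 and -0.11 for the same classes, and the medians in depth-scaled counts were -0.54, -0.42 and -0.42. The same median over all genes tested was 0.08, 0.01, 0.04 and 0.0041 in the 4 lines. The medians of the PSMC, PSMD and activator classes had lines on both sides of 0, so no direction of these classes held in every line. Within the PSMD class, the base scaffolds and receptor (PSMD1, PSMD2, PSMD4) had 2 of 3 genes higher, the 8 lid genes had 2 higher and 1 lower, and the 3 base chaperones had 0 higher and 2 lower.

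The lower genes of the cap were spread over its parts. PSMD12, a lid subunit, had 69.7, 132, 83.8 and 112 FPKM in the inputs and 70.3, 79.3, 34.4 and 37.1 FPKM in RIP. Its FPKM was the same in both Hep3B libraries and lower in RIP in the other lines, and the groups overlapped. The log2 fold change from the counts was -1.47 ± 0.22 (SE, edgeR adjusted p = 0.00026), and from limma on log2(FPKM + 1) it was -0.89, so its size depended on the scale. PSMC6, a base ATPase, had 74.3, 42.8, 48.1 and 64.5 FPKM in the inputs and 33.3, 18.9, 24.8 and 49.6 FPKM in RIP. Only the SW1990 RIP library reached the range of the inputs, and the log2 fold change was -1.29 ± 0.22 (SE, edgeR adjusted p = 0.000742). PSMC1, the ATPase whose tail helps to open the gate of the core, was lower with -0.83 ± 0.20 (SE, edgeR adjusted p = 0.00495), from 33.1 to 64.4 FPKM in the inputs and 26.7 to 56.3 FPKM in RIP. On the FPKM scale it did not pass, with -0.52.

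The base chaperones PSMD9 and PSMD5 had log2 fold changes of -0.89 ± 0.20 (SE, edgeR adjusted p = 0.00423) and -0.59 ± 0.18 (SE, edgeR adjusted p = 0.0182), whereas PSMD10, the oncoprotein gankyrin, had 0.01 ± 0.19. PSMD9 was lower in all 4 lines, with 20.9, 32.5, 57.5 and 84.4 FPKM in the inputs and 8.13, 16.9, 41.7 and 64.5 FPKM in RIP. PSMD5 had the same level in both SW1990 libraries, 32.5 and 32.6 FPKM, and did not pass on the FPKM scale (-0.32) or without the HCT116 (-0.54) or DU145 (-0.51) pair. Its locus holds an antisense gene, PSMD5-AS1, and how strand was counted is not given in the sources used here. The 9 PSMC and PSMD genes that did not pass, PSMC2, PSMC5, PSMD4, PSMD6, PSMD7, PSMD8, PSMD10, PSMD11 and PSMD14, lay between -0.47 (PSMD14, the deubiquitinase) and 0.24 (PSMD8) in log2 fold change. Of these, PSMD6 and PSMD14 passed as lower with library totals and when centred on protein-coding genes, PSMC2 and PSMD7 with library totals and PSMD14 also with a minimum of 50 counts.

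The other activators were split. PSME1 and PSME2 encode the interferon-inducible activator PA28 alpha and beta, and PSME3 encodes the nuclear PA28 gamma. PSME3 had 108, 87.2, 142 and 91.5 FPKM in the inputs and 91.8, 41.5, 76.5 and 62.9 FPKM in RIP, lower in each line with overlap through the Hep3B RIP library. Its log2 fold change was -0.62 ± 0.20 (SE, edgeR adjusted p = 0.0225). It did not pass when the HCT116 (-0.58), DU145 (-0.52) or SW1990 (-0.60) pair was left out.

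PSME1 had 48.4, 82.2, 22.4 and 61.9 FPKM in the inputs and 47.7, 93.2, 27.7 and 42.1 FPKM in RIP (-0.29 ± 0.20, SE, edgeR adjusted p = 0.264), and it passed as lower with library totals (-0.64). PSME2 had 75.4, 90.1, 32.4 and 73.2 FPKM in the inputs and 112, 87.4, 49.2 and 66.4 FPKM in RIP (0.07 ± 0.19, SE, edgeR adjusted p = 0.796). Both were lowest in DU145 cells, in input and RIP alike, the line in which PSME3 was highest in the input. The sum of PSME1 and PSME2 over PSME3, in FPKM of the inputs, was 1.14, 1.97, 0.387 and 1.48, lowest in DU145 cells. PSME2 shares its locus with IRF9, itself an interferon pathway gene, and with RNF31.

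Of the immune subunits, PSMB8 passed 1 FPKM in DU145 cells only, PSMB9 in HCT116 and DU145 cells, and PSMB10 in all 4 lines. PSMB8, which replaces PSMB5, was listed at 0 in both libraries of Hep3B and of SW1990 cells, at 0.104 FPKM in the input and 0.233 in the RIP of HCT116 cells, and at 8.59 and 8.32 FPKM in DU145 cells. DU145 was thus the only line with more than 8 recovered fragments of PSMB8 in a library, 487 in the input and 232 in RIP. A count of 0, read as at most 3 fragments, allows up to 0.0838 fragments in 1000000 in the Hep3B input. PSMB9, which replaces PSMB6, had 0.237, 13.1, 4.52 and 0.168 FPKM in the inputs and 0.128, 12.9, 4.13 and 0 FPKM in RIP. It was highest in HCT116 cells, lower in DU145 cells and rested on at most 8 fragments per library in the others.

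PSMB10, which replaces PSMB7, was present in every line, with 6.26, 27.7, 20.9 and 36.0 FPKM in the inputs and 7.29, 10.6, 17.6 and 10.7 FPKM in RIP. Hep3B cells were lowest in both, HCT116 and SW1990 cells were lower in RIP, and Hep3B and DU145 cells moved little. None of the 3 passed the test, with log2 fold changes of 0.33 ± 0.73 for PSMB8 (SE, edgeR adjusted p = 0.732), -0.62 ± 0.56 for PSMB9 (SE, edgeR adjusted p = 0.383) and -0.52 ± 0.36 for PSMB10 (SE, edgeR adjusted p = 0.254). The standard errors were larger than those of the constitutive genes. PSMB8 and PSMB9 rested on few or no fragments in some lines, whereas PSMB10 had 148 to 612 recovered fragments in the inputs and its log2 ratios of FPKM lay between -1.65 (SW1990) and 0.19 (Hep3B). The value of PSMB8 turned to -0.13 without the HCT116 pair, and without the DU145 pair the gene fell under the filter.

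The immune share, PSMB8, PSMB9 and PSMB10 over these and the PSMB5, PSMB6 and PSMB7 they replace, in FPKM, was 1.62%, 6.67%, 9.22% and 7.0% in the inputs, highest in DU145 and lowest in Hep3B cells. In RIP it was 1.49%, 4.62%, 6.70% and 2.23% in the same order. The RIP library was below its input in all 4 lines, though by little in Hep3B cells. In estimated counts, which are not scaled to length, the share was 1.14%, 3.81%, 6.61% and 3.47% in the inputs and 1.16%, 2.84%, 5.65% and 1.47% in RIP, so that the Hep3B pair turned and the inputs of HCT116 and SW1990 cells changed places in the order. The share is of FPKM and not of counts, so no binomial interval is given, and with 1 input per line there is no test between lines. The make-up of the share differed as well. In the inputs, PSMB10 gave 96.3%, 67.7%, 61.5% and 99.5% of the immune FPKM, so that it was nearly alone in Hep3B and SW1990 cells. Set against the subunit it replaces, PSMB8 reached 11.8% of PSMB5 in the DU145 input, PSMB9 5.63% of PSMB6 in the HCT116 input and PSMB10 20.8% of PSMB7 in the SW1990 input. The constitutive counterparts were at 73.0 to 233 FPKM in all inputs.

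**Figure D4:**
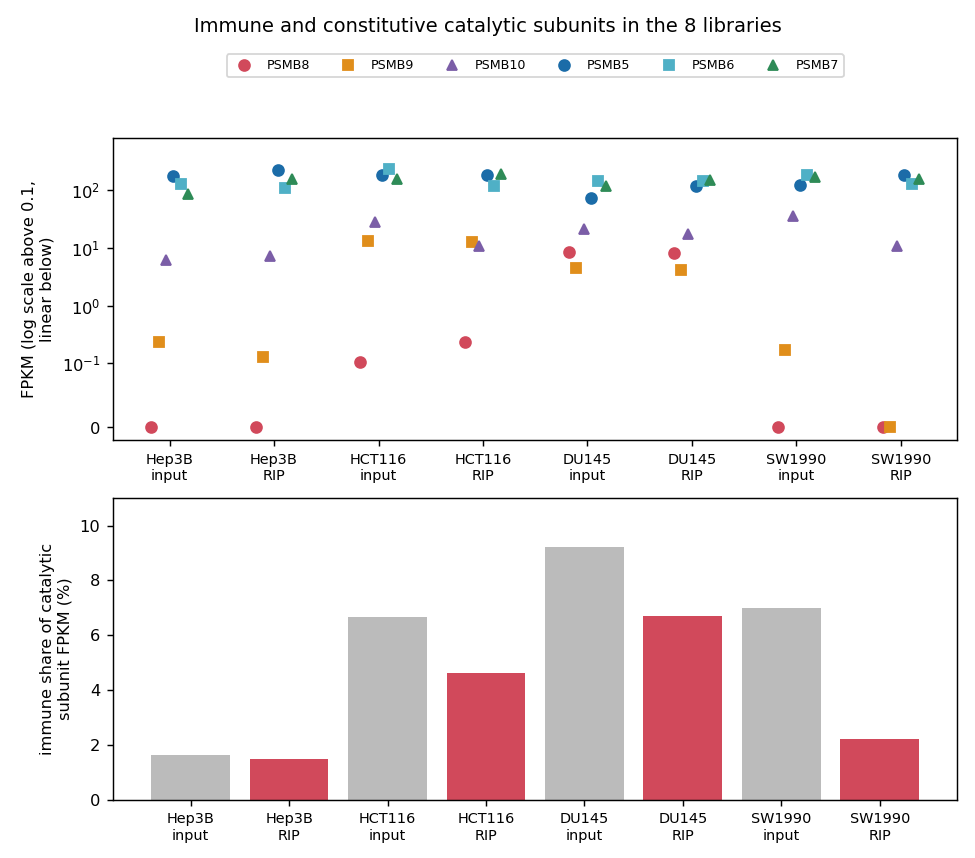
Upper panel, FPKM of the immune genes PSMB8, PSMB9 and PSMB10 and of their constitutive counterparts PSMB5, PSMB6 and PSMB7 in the 8 libraries (log scale above 0.1, linear below, so that 0 can be drawn). Lower panel, immune share of the summed FPKM of these 6 genes in percent, with inputs in grey and RIP in red, from 1.49% in the Hep3B RIP to 9.22% in the DU145 input.

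PSMB8 and PSMB9 lie together in the class II region of the major histocompatibility complex, in an interval of overlapping genes at chr6:32808493-32827362 (hg19) that also holds TAP1, a peptide transporter of antigen presentation, and TAPSAR1, an antisense RNA. Fragments of TAPSAR1 and of the genes opposite to it cannot be told apart if strand was not counted. TAPSAR1 had 0.134, 0.452, 0.8802 and 0.1004 FPKM in the inputs, and 1.304 FPKM in the DU145 RIP library. It was thus highest in DU145 cells, the line in which PSMB8 was highest, with 59 recovered fragments in the input against 487 of PSMB8. Its part in the level of PSMB8 was not tested. TAP1 had 0.727, 12.7, 9.24 and 2.61 FPKM in the inputs and 4.02, 49.0, 43.0 and 20.2 FPKM in RIP, above its input in each line. PSMB10 shares its interval on chromosome 16 with CTRL and PSKH1.

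The 250 bases before the gene starts of the immune subunits are shown because these are the members whose level differed most between the lines. They are RefSeq promoter entries of GRCh38.p14 on the gene's own strand, with matches of the searched motifs in capitals. PSMB8 has 2 starts, and the window of the downstream one (chr6:32844048-32844297, minus strand) lies within the span transcribed from the other (chr6:32844680-32844929, minus strand). The PSMB9 window is chr6:32853942-32854191 (plus strand) and that of PSMB10 chr16:67936851-67937100 (minus strand).
PSMB8 upstream start: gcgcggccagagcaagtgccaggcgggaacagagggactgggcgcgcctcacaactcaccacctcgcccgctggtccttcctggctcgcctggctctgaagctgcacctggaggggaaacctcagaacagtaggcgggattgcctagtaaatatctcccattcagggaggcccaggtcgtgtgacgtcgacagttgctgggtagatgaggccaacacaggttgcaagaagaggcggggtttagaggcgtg
PSMB8 downstream start: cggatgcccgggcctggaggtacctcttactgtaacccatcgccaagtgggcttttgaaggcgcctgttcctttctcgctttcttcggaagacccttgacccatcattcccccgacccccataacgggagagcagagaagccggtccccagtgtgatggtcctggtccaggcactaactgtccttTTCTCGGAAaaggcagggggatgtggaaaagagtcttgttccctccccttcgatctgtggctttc
PSMB9: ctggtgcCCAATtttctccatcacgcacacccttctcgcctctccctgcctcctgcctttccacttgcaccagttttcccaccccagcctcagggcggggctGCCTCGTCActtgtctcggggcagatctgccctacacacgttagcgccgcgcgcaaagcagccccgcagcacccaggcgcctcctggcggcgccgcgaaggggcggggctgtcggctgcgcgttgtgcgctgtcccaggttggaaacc
PSMB10: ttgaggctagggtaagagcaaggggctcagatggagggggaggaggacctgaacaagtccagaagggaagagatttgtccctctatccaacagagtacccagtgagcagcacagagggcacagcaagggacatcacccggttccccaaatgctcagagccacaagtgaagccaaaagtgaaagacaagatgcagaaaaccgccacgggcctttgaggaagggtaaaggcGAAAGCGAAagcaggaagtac
Motifs were searched by their letters on both strands: the gamma-activated site of STAT factors (GAS, TTCNNNGAA), the core of interferon-stimulated response elements (ISRE-like, GAAANNGAA), the antioxidant response element that NRF1 and NRF2 bind (ARE, TGACNNNGC) and the CCAAT box (CCAAT), none overlapping another in these windows. The downstream PSMB8 window held a GAS match beginning 65 bases before the start, the PSMB10 window an ISRE-like match at 21 bases, and the PSMB9 window an ARE match at 148 and a CCAAT match at 243 bases. The upstream PSMB8 window held none.

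Entries were found for 38 of the 43 proteasome symbols. At least 1 window held the ARE letters in 11 of these genes (28.9%), among them PSMA4, PSMD3, PSMD12 and PSME4, against 13.2% of all 27305 genes with an entry. The GAS letters were in 7 genes (18.4%, against 8.09% of all genes), the ISRE-like letters in 4 genes, PSMA4, PSMB4, PSMB10 and PSME2 (against 8.41% of all genes), and the CCAAT letters in 18 genes (47.4%, against 37.0%). The ARE letters were in 2 of the 7 genes higher in RIP and in 4 of the 10 lower genes with an entry. A match of letters is a description of the sequence and not evidence of binding.

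Length differed between the classes. Estimated counts per FPKM are proportional to the length that the authors' software divided by, and their median in the inputs was 30.9 for alpha genes, 28.1 for constitutive beta genes, 57.1 for PSMC genes, 64.4 for PSMD genes and 81.8 over protein-coding genes tested. The 7 genes higher in RIP lay between 42.3 (PSMD13) and 172 (PSME4), and the 12 lower entries between 20.4 (PSMA3) and 93.1 (the additional PSMA2 identifier). Across the 43 entries the Spearman correlation of counts per FPKM with the log2 fold change was 0.28, and across 12990 protein-coding genes it was 0.26. These are descriptions across genes of the same libraries, and genes are not independent replicates. Protein-coding genes under 30 counts per FPKM had a median log2 fold change of -0.84, those from 30 to 60 had -0.17, those from 60 to 120 had 0.16 and longer ones 0.49. The proteasome entries in the first 3 of these ranges had medians of -0.51 (8 entries), -0.16 (21 entries) and -0.33 (13 entries). The part of length in the differences was not tested.

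**Figure D5:**
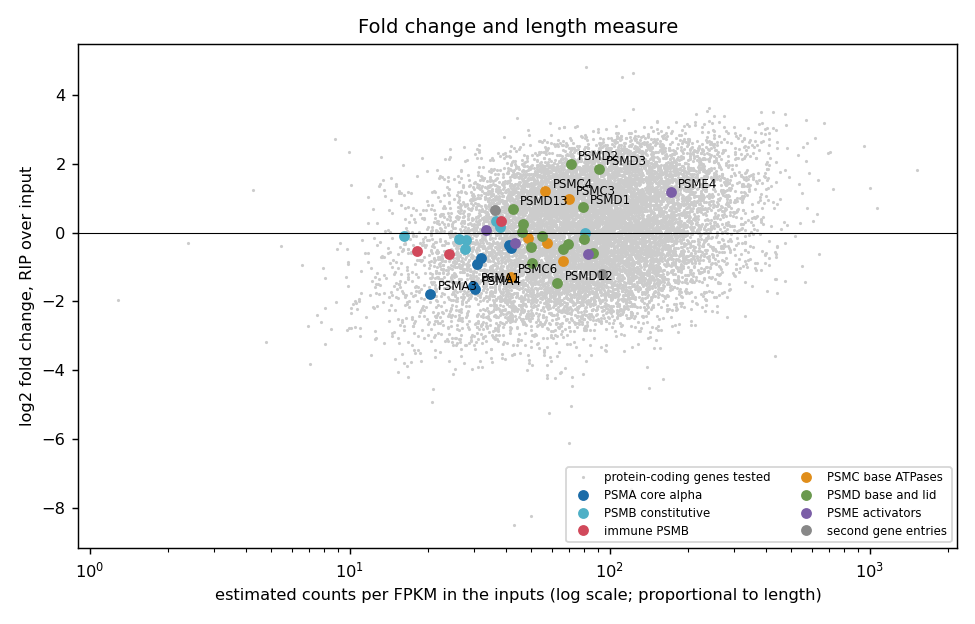
Log2 fold change of RPS6 RIP over input (y axis) against estimated counts per FPKM in the inputs, a measure proportional to length (x axis, log scale), for the proteasome genes by class (coloured points) and for all protein-coding genes tested (grey). Most core genes sit at the left, at a median of 30.6 counts per FPKM, and of the proteasome genes PSME4 is farthest right at 172. The alpha median (-0.91) lies below the beta median (-0.09), but single points overlap, with PSMB6 below PSMA2 and PSMA5.

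Counts per FPKM were themselves lower in RIP than in the inputs, by a median of -0.23 on the log2 scale over the 43 entries and -0.18 over protein-coding genes, so ratios from FPKM ran above those from counts. For 5 genes that did not pass, PSMB1, PSMB2, PSMC5, PSMD4 and PSMD11, the sign was negative by edgeR on counts and positive by limma on log2(FPKM + 1).

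Other genes of the pathway were read from lists chosen by function. Of 45 genes, 18 were higher in RIP, 15 lower and 12 did not pass, with a median log2 fold change of 0.15, where 26.5% of all genes tested were higher and 24.9% lower (32.3% and 26.1% of protein-coding genes). Of the 6 assembly factors, which help to put the proteasome together, 5 were lower and 0 higher, with a median of -1.36. They include POMP, the maturation factor of the core (-1.40 ± 0.23, SE, edgeR adjusted p = 0.000619), and PSMG3, a chaperone of the alpha ring (-1.83 ± 0.20, SE, edgeR adjusted p = 3.92e-05). Of the 9 genes listed as receptors and shuttles, most of which bring ubiquitinated proteins to the cap, 4 were higher and 4 lower. ADRM1, the ubiquitin receptor that docks on PSMD1, had a log2 fold change of 1.95 ± 0.20 (SE, edgeR adjusted p = 2.93e-05). SHFM1 had -5.00 ± 0.74 (SE, edgeR adjusted p = 0.000269). It is a very small lid subunit that was counted in this list and not among the lid genes of the PSMD class.

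Of the 5 deubiquitinases, ligases and regulators at the proteasome, 3 were higher and 1 lower, the lower one being the deubiquitinase UCHL5, which docks on ADRM1 (-2.09 ± 0.20, SE, edgeR adjusted p = 1.99e-05). Among the ubiquitin genes, the activating enzyme UBA1 was higher, and RPS27A, which encodes ubiquitin fused to a ribosomal protein, was lower (-2.46 ± 0.28, SE, edgeR adjusted p = 5.66e-05). Of the 5 genes of the segregase VCP and its cofactors, 3 were higher and 1 lower. Of the 7 genes of the NRF1 pathway, which raises proteasome transcription when the proteasome is inhibited, 3 were higher, NFE2L1 among them (0.87 ± 0.18, SE, edgeR adjusted p = 0.0027), and 1 was lower. Of the 8 interferon regulators of the immune subunits, 4 were higher and 1 lower. NLRC5, the transactivator of class I antigen presentation, had 0.209, 2.66, 3.40 and 1.10 FPKM in the inputs, lowest in Hep3B cells, where PSMB10 was lowest as well. Their highest inputs differed, with NLRC5 highest in DU145 cells and PSMB10 highest in SW1990 cells, at 36.0 FPKM.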

How the data were processed

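RNA from RPS6 RIP and input of 4 cell lines had been prepared with a stranded total RNA kit. Per the submitters' processing notes, reads were handled with CASAVA 1.8 and aligned to hg19 with TopHat2 2.0.9, and the counting tool, its annotation release and its strand setting are not given in the sources used here. The authors deposited an FPKM and an estimated count per gene and library, in a table for each of 2 cell line pairs, and the estimated counts are multiples of a scale factor per library, of which between 85.6% and 92.3% of values above 0 came out whole (within 0.02) after division by it. The design had assumed raw counts. The estimated counts were therefore rounded and tested with edgeR 4.0.16 in R 4.3.3 (quasi-likelihood, TMM, cell line as block, mean of at least 10 counts, Benjamini-Hochberg over 19921 genes). Ratios within a line used log2(FPKM + 1). Files of pairwise comparisons hold the authors' fold changes and p-values and were not used.

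RIP and input are paired by the cell line in the labels. The deviation of a RIP library from its group mean correlated with that of its own input with r of 0.83 to 0.88 over genes, and with the inputs of other lines with r no higher than -0.05. Because the deviations are taken from a group mean, a high r with the own input pushes the others below it on average. The negative values therefore add no support of their own for the pairing. Replicates are different cell lines, so p-values measure the spread between these pairs. Alternatives left out the block or each pair, used DESeq2 1.42.0, limma 3.58.1 on FPKM with a pseudocount of 1 or 0.1, other filters and scalings, and recovered whole fragments. Counts and floors (3 fragments) cover counting error only. Of the proteasome loci, 27 of 45 hold other listed genes. Promoters came from RefSeq (GRCh38.p14) and were used for sequence and motifs only, and RefSeq symbols marked protein-coding genes. Genes given with full values were the immune subunits and their counterparts, the activators, the tissue-restricted genes, the highest and lowest member of each class and members called against the majority, and other called members were added. The members and lists were chosen with earlier results of these data known. Some genes of the marker and pathway lists are not reported here. The edgeR code was run on simulated data with fold changes of equal size, up and down, in every line. That run did not test the choice of scaling. Other steps ran in Python 3.11.15 (pandas 2.3.3, SciPy 1.17.1, matplotlib 3.10.9).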

Additional observations from a re-analysis of the deposited data

Results flagged for a closer look

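Of 84 sets of 4 values (the log2 ratio, the input level and the RIP level of 28 named proteasome genes over the cell lines), 4 had a line that stood apart by Dixon's test. Chance flags about 1 in 20 such sets. PSMB8 stood apart in both libraries of DU145 cells, with 8.59 FPKM in the input against at most 0.104 FPKM in the other lines, and 8.32 FPKM in RIP against at most 0.233 FPKM. The RIP level of the base ATPase PSMC1 was 56.3 FPKM in HCT116 cells, above the 26.7 to 29.4 FPKM of the others. The RIP level of PSMB7, the subunit with the trypsin-like site, was 192 FPKM in HCT116 cells, above the 154 to 156 FPKM of the others.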

How the results depend on the processing

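Without the replicate block, 2 proteasome genes were higher and 4 lower in RIP (7 and 12 with it), and 4 and 6 other genes of the pathway were higher and lower (18 and 15 with it). With library totals in place of TMM, 21 proteasome genes were lower, and 11 pathway genes were higher. Leaving out each pair in turn gave 5 to 7 higher and 9 to 13 lower proteasome genes, and 14 to 18 higher and 12 to 15 lower pathway genes. Of the 19 called members, 6 stayed called under every alternative and 13 under all but the fit without the block, and none changed sign. Among the named members, 4 that did not pass changed sign. PSMB5 was -0.022 and PSMB7 -0.18 without TMM, and PSMB7 lay between -0.060 and 0.32 when each pair was left out. PSMB8 was -0.11 without the block, -0.067 without TMM and between -0.13 and 0.32 when a pair was left out (without DU145 it was not fitted). PSME2 was -0.28 without TMM, -0.064 when centred on protein-coding genes and between -0.11 and 0.16 when each pair was left out. In depth-scaled counts instead of FPKM, class medians were -1.33 (alpha), -0.39 (beta), -0.31 (immune), -0.54 (PSMC), -0.42 (PSMD) and -0.42 (activators). Centred on protein-coding genes, the beta median was -0.17 and the immune median -0.21, and with log2(FPKM + 0.1) the immune median was -0.39. In estimated counts the immune share was 1.14%, 3.81%, 6.61% and 3.47% in the inputs and 1.16%, 2.84%, 5.65% and 1.47% in RIP, in the order of the report, so that the Hep3B pair no longer had the lower share in RIP. The causes were not tested. Depth limits PSMB8 and PSMB9 in Hep3B and SW1990 cells, where they had at most 8 fragments.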
